A study of Rattus norvegicus with 59 samples.

Results

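Aldoa, Ldha, Gpi and Mpc1 are the members described here, 4 of the 2887 complete gene entries in a table of lung transcript levels. They were chosen by name, as genes of glucose breakdown and of the entry of its product, pyruvate, into mitochondria, with earlier results of these data known. Male Fischer F344 rats, bought at 3 months of age, were used, and a piece of the lung of each of 59 rats gave 1 RNA-seq library. The silica rats (30 libraries) inhaled crystalline silica at 15 mg/m3 in a whole-body chamber for 6 hours a day on 5 days, and the controls (29 libraries) were exposed to air alone. Lungs were taken at 6 times, 1 and 3 months, 6 and 9 months, and 12 and 18 months after exposure, from 5 rats in each group except the 9-month air group of 4. The labels name no altered gene, and each time had its own air group.

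Glycolysis splits glucose into pyruvate in the cytosol. Gpi and Aldoa catalyse early steps of it. Pyruvate can then be reduced to lactate by lactate dehydrogenase, whose A subunit is Ldha, or be carried across the inner mitochondrial membrane by a carrier made of Mpc1 and Mpc2 for oxidation. Activated macrophages and neutrophils are known for high glycolytic rates, and alveolar type 2 cells, which make surfactant, use lactate and pyruvate as fuels. Ldha and Aldoa are textbook targets of hypoxia-inducible factor, which recognises a short core sequence in promoters.

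The promoter windows of the 4 genes are shown because all 4 were higher in silica lungs in what follows, though they differed in other comparisons. Each window holds 300 bases from before to just after a start site, as RefSeq gives it for the GRCr8 assembly, 5′ to 3′ on the strand of the gene. All 4 genes lie on chromosome 1, as do 2046 of the 2061 entry names matched to RefSeq, so this location belongs to the table. Ranks and shares over all entries below are over that table only. Capitals mark the core of the hypoxia-inducible factor motif, ACGTG or GCGTG, on either strand, so that CACGT and CACGC in capitals are matches on the other strand. The windows are Gpi at chr1:95993212-95993511, minus strand; Aldoa, the first of 3 windows, at chr1:190836728-190837027, minus strand; Ldha at chr1:106507842-106508141, plus strand; and Mpc1 at chr1:54996909-54997208, minus strand.
Gpi: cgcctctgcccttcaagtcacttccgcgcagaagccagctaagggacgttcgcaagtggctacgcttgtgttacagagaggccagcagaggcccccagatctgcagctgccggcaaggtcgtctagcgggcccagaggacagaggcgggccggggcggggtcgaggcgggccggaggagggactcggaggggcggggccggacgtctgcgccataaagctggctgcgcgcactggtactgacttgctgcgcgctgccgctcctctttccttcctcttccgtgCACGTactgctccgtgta
Aldoa: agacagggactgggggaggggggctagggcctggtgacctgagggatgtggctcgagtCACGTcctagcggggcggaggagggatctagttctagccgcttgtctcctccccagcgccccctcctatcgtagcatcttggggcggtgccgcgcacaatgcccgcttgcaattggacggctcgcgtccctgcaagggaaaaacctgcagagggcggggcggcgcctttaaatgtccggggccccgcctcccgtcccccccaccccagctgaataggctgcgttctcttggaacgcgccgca
Ldha: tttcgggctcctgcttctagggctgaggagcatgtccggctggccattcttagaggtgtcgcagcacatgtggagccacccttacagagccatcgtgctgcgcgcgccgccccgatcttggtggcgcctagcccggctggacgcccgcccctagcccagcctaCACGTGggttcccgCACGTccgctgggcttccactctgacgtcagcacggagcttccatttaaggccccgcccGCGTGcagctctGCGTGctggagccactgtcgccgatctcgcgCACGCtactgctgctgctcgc
Mpc1: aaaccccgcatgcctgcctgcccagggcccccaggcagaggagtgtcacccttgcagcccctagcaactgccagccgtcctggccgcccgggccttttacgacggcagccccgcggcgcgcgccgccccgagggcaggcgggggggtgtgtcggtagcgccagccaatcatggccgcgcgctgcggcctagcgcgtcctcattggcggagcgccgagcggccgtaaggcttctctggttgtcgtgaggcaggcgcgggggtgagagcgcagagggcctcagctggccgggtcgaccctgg

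The Ldha window held 3 matches to ACGTG and 3 to GCGTG, of which 2 of the first kind are the palindrome CACGTG read on both strands. The Gpi window and the Aldoa window shown each held 1 match, and the Mpc1 window and the other 2 Aldoa windows held none. Among 33469 windows of the same length, 19.3% held ACGTG, 29.7% held GCGTG, 6.42% held CACGTG and 41.6% held ACGTG or GCGTG. The Ldha window was 66.7% G and C, against a median of 51.7% over those windows, and both motifs hold the letters CG. A match is a run of letters, not a measured site, and the lack of one says nothing about the factor.

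FPKM (fragments scaled to transcript length and to the mapped total of the library) is a level per length, so genes can be set beside each other on it. Tests compared log2(FPKM + 0.5) with limma across the 1278 entries that reached 1 FPKM in 4 or more libraries, all 4 members included. A gene is said to have risen or fallen where its p, adjusted over all 1278 entries, was under 0.05. Replicate numbers below only name libraries. The relative depth of the libraries, read from the steps between low FPKM values, spanned 5.19-fold. The 12-month silica replicate 3 stood apart, with the lowest value of its group for each of the 4 genes (57.1 FPKM for Aldoa, where the next lowest was 80.9 FPKM). In 2 other libraries the entry LOC102553223 took much of the FPKM sum, which was 31740 in silica replicate 5 of 3 months (14626 without that entry) and 38613 in air replicate 3 of 9 months (12795 without it). The averages over times without that air library were 0.50 for Ldha, 0.33 for Aldoa, 0.31 for Mpc1 and 0.24 for Gpi, and without that silica library 0.51 for Ldha, 0.35 for Aldoa, 0.31 for Mpc1 and 0.24 for Gpi.

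All 4 genes were higher in silica lungs than in air lungs over the 6 times. Averaged over the times, Ldha rose most, by 0.51 ± 0.041 log2 units (1.42-fold, with the SE; adjusted p = 3.10e-15 by limma). Aldoa rose by 0.34 ± 0.036 (1.27-fold, adjusted p = 1.30e-11), Mpc1 by 0.31 ± 0.034 (1.24-fold, adjusted p = 3.47e-11) and Gpi by 0.24 ± 0.031 (1.18-fold, adjusted p = 4.10e-09), all by limma. Of all tested entries, 37.5% were called higher in this average, so a call alone is common in the table. In bulk tissue, more cells of a type and more RNA per cell cannot be told apart. The median difference over the 4 genes was 0.33, against 0.032 over all 1278 entries. Ldha lay above 95.3% of the tested entries by the size of its difference, Aldoa above 90.5%, Mpc1 above 88.6% and Gpi above 83.7%. Without the 12-month silica replicate 3 the averages were 0.53 for Ldha, 0.36 for Aldoa, 0.33 for Mpc1 and 0.25 for Gpi. Leaving out this lung, the lowest of its group for each gene, had to raise them.

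By time, 2 of the 4 genes rose at 1 month (8.45% of all entries were called higher), 3 at 3 months (15.9%) and all 4 at 6 months (21.2%), 9 months (19.5%), 12 months (14.6%) and 18 months (11.8%). Aldoa rose at all 6 times, which 3.21% of the tested entries did, and the other 3 genes at 5 times each, where 7.59% of the tested entries rose at 5 or more. In a fit of the 2 groups alone, none of the 4 was called at 12 months (limma adjusted p of 0.115 to 0.324). That fit called 1 of the 1278 entries. The silica libraries were all above the air libraries for 3 genes at 1 month (8.06% of entries), 4 at 3 months (11%), 4 at 6 months (20.6%), 3 at 9 months (16%), none at 12 months (1.64%) and 3 at 18 months (9.23%). A limma F test for a change of the difference over the times called none of the 4 (adjusted p = 0.922 for Aldoa, 0.337 for Ldha, 0.888 for Gpi and 0.505 for Mpc1), and 1.33% of all entries. A p that misses the threshold does not show that the difference was the same at all times.

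**Figure D1:**
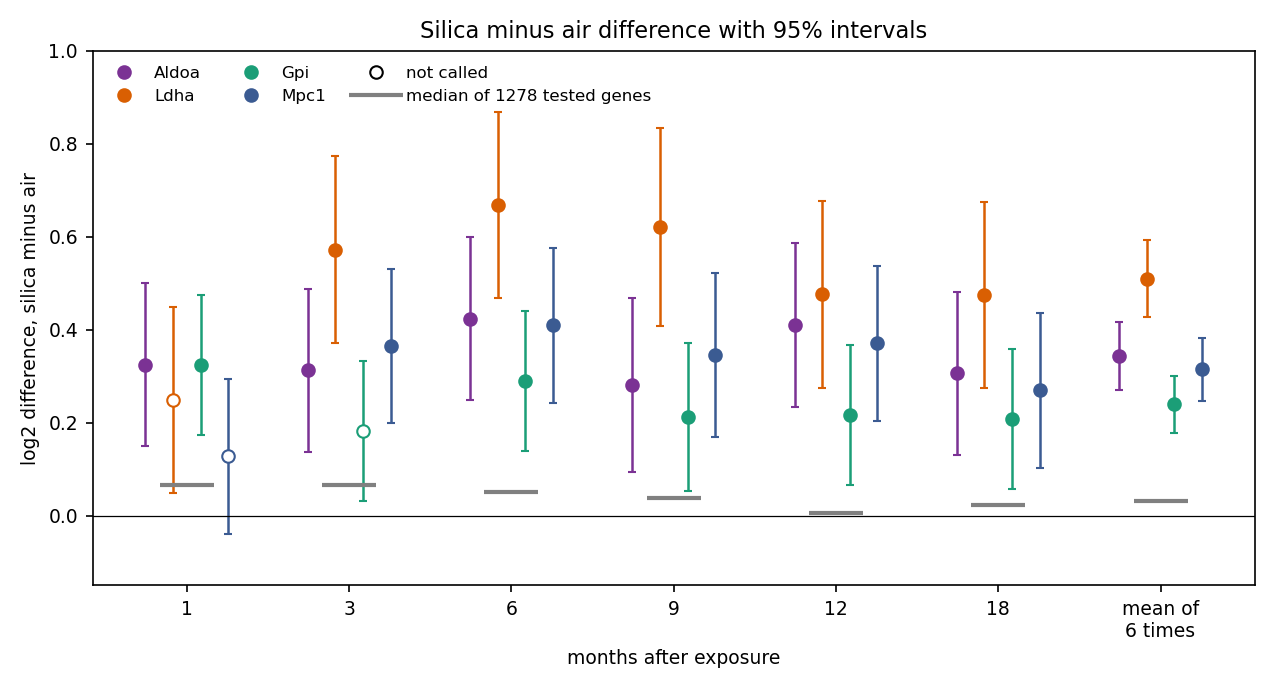
Silica minus air difference of each gene on the log2(FPKM + 0.5) scale (vertical axis) at each post-exposure time in months (horizontal axis), with its 95% interval from limma; the last position is the mean of the 6 times, open points were not called, and grey bars mark the median of all tested entries. The Ldha values by time run 0.25 to 0.67 and are the highest of the 4 genes from 3 months on, while the Gpi values by time stay between 0.18 and 0.32.

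Centring each library on the median of its tested entries left the averaged rises of all 4 genes called, at 0.45 for Ldha, 0.28 for Aldoa, 0.25 for Mpc1 and 0.18 for Gpi, and 18 of the 24 calls by time in place of 21. Quantile normalization, which forces all libraries to one distribution, gave 0.37 for Ldha, 0.23 for Aldoa, 0.17 for Mpc1 and 0.078 for Gpi, all still called, and the Gpi average kept the smallest share of its value. By time it ended the calls on Aldoa at 3, 9 and 18 months, on Gpi at 6, 9, 12 and 18 months and on Mpc1 at 18 months, while centring ended those on Aldoa at 1 month and on Gpi and Mpc1 at 18 months. The split of calls over all entries depends on it too: 479 higher and 257 lower in the average as deposited became 338 higher and 429 lower after centring. After centring, 26.4% of entries were called higher in the average, and 2.97% at 1, 8.76% at 3, 16% at 6, 17.3% at 9, 13.2% at 12 and 8.76% at 18 months. In counts, the entries called higher and lower were 108 and 5 at 1 month as deposited but 38 and 27 after centring, 203 and 30 but 112 and 121 at 3 months, 271 and 82 but 205 and 143 at 6 months, 249 and 144 but 221 and 187 at 9 months, 186 and 116 but 169 and 186 at 12 months, and 151 and 45 but 112 and 109 at 18 months.

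Gpi, glucose-6-phosphate isomerase, turns glucose phosphate into fructose phosphate and is also known as a secreted cytokine. At 1 month, Gpi measured 28.7, 27.6, 28.4, 29.3 and 32.1 FPKM in the silica lungs, against 23.0, 20.5, 21.8, 24.9 and 26.3 FPKM in the air lungs. Each silica lung exceeded each air lung. The means were 29.2 ± 1.72 FPKM with silica and 23.3 ± 2.32 FPKM with air (SD, n = 5 each), a rise of 0.32 ± 0.075 (log2, SE; limma adjusted p = 0.00371). The 3-month silica lungs held 28.4, 32.1, 33.3, 30.8 and 28.3 FPKM of Gpi, and the 3-month air lungs held 27.8, 28.3, 26.1, 25.7 and 26.2 FPKM. The lowest silica value, 28.3 FPKM, and the highest air value, also 28.3 FPKM, nearly met, but no air library exceeded a silica library. The means were 30.6 ± 2.24 FPKM with silica and 26.8 ± 1.13 FPKM with air (SD, n = 5 each), and the log2 difference of 0.18 ± 0.075 (SE) did not pass (limma adjusted p = 0.0803). Its 95% confidence interval ran 0.032 to 0.33. For Gpi the 5 silica lungs at 6 months gave 33.6, 32.3, 31.8, 33.4 and 32.0 FPKM, against 27.2, 26.4, 26.6, 26.1 and 26.6 FPKM in air lungs. The groups did not overlap. With means of 32.6 ± 0.832 FPKM with silica and 26.6 ± 0.409 FPKM with air (SD, n = 5 each), the rise was 0.29 ± 0.075 (log2, SE; limma adjusted p = 0.00255).

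The 9-month silica lungs held 30.4, 32.1, 31.6, 33.8 and 33.6 FPKM of Gpi, and the 9-month air lungs held 26.8, 29.1, 26.8 and 28.6 FPKM. All 5 silica lungs were above all air lungs. Gpi rose by 0.21 ± 0.079 log2 units (SE; adjusted p = 0.0366 by limma), with means of 32.3 ± 1.44 FPKM with silica and 27.8 ± 1.199 FPKM with air (SD, n = 5 and n = 4). At 12 months, Gpi measured 35.0, 30.9, 25.6, 34.1 and 33.4 FPKM in the silica lungs, against 31.2, 31.4, 29.7, 24.02 and 21.1 FPKM in the air lungs. The groups overlapped: silica replicates 2 and 3 lay within the air range, which spanned 21.1 to 31.4 FPKM, and the other 3 silica lungs lay above it. The means were 31.8 ± 3.78 FPKM with silica and 27.5 ± 4.66 FPKM with air (SD, n = 5 each), a rise of 0.22 ± 0.075 (log2, SE; limma adjusted p = 0.0287). For Gpi the 5 silica lungs at 18 months gave 32.9, 34.3, 32.4, 34.4 and 32.6 FPKM, against 26.6, 28.9, 32.0, 30.6 and 26.1 FPKM in air lungs. No air library reached the lowest silica library, though the highest air value came close to the lowest silica value of 32.4 FPKM. With means of 33.3 ± 0.943 FPKM with silica and 28.8 ± 2.53 FPKM with air (SD, n = 5 each), the rise was 0.21 ± 0.075 (log2, SE; limma adjusted p = 0.0499). The Gpi calls at the late times lay near the threshold, and leaving out 1 lung ended several with little change of the difference. At 9 months the call was lost without air replicate 1 (adjusted p = 0.0920), air replicate 3 (0.0903), silica replicate 4 (0.0812) or silica replicate 5 (0.0776), at differences of 0.19 to 0.20. At 12 months it was lost without air replicate 4 (0.102), air replicate 5 (0.195, at a difference of 0.13), silica replicate 1 (0.111), silica replicate 4 (0.0942) or silica replicate 5 (0.0754), all by limma. At 18 months it was lost without any of the 5 silica lungs or air replicates 1, 2 or 5, with limma adjusted p of 0.0567 to 0.159 and differences of 0.17 to 0.22. At 12 months the exact two-sided permutation test of the 10 lungs gave p = 0.167, quantile normalization a difference of 0.050 (limma adjusted p = 0.552) and the fit of the 2 groups alone an adjusted p of 0.324.

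Aldoa, the aldolase that splits fructose bisphosphate into triose phosphates, had the highest level of the 4 genes in all 59 libraries. At 1 month, Aldoa measured 68.2, 65.3, 61.4, 66.3 and 68.4 FPKM in the silica lungs, against 50.7, 47.5, 49.3, 55.4 and 60.7 FPKM in the air lungs. No air library reached the lowest silica library. The means were 65.9 ± 2.83 FPKM with silica and 52.7 ± 5.31 FPKM with air (SD, n = 5 each), a rise of 0.32 ± 0.087 (log2, SE; limma adjusted p = 0.0125). Without air replicate 2 this call was lost (adjusted p = 0.0612). The 3-month silica lungs held 71.8, 70.9, 76.2, 78.5 and 66.0 FPKM of Aldoa, and the 3-month air lungs held 54.2, 59.1, 61.4, 58.8 and 58.3 FPKM. The groups did not overlap. Aldoa rose by 0.31 ± 0.087 log2 units (SE; adjusted p = 0.00908 by limma), with means of 72.7 ± 4.87 FPKM with silica and 58.4 ± 2.60 FPKM with air (SD, n = 5 each). For Aldoa the 5 silica lungs at 6 months gave 86.0, 83.7, 86.8, 83.8 and 82.5 FPKM, against 65.7, 61.6, 60.5, 60.4 and 66.6 FPKM in air lungs. Each silica lung exceeded each air lung. The 6-month silica lungs were also close to each other. With means of 84.6 ± 1.77 FPKM with silica and 63.0 ± 2.95 FPKM with air (SD, n = 5 each), the rise was 0.42 ± 0.087 (log2, SE; limma adjusted p = 0.000191).

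For Aldoa the 5 silica lungs at 9 months gave 76.5, 83.4, 78.4, 82.8 and 89.7 FPKM, against 66.6, 60.7, 58.6 and 87.4 FPKM in air lungs. The groups overlapped through air replicate 4, at 87.4 FPKM, which exceeded 4 of the 5 silica lungs, and the other 3 air lungs lay below all silica lungs. With means of 82.2 ± 5.10 FPKM with silica and 68.3 ± 13.2 FPKM with air (SD, n = 5 and n = 4), the rise was 0.28 ± 0.093 (log2, SE; limma adjusted p = 0.0168). The difference was 0.40 without air replicate 4, and the call was lost without air replicate 2 (limma adjusted p = 0.0768), air replicate 3 (0.104) or silica replicate 5 (0.0524). The exact two-sided permutation test of the 9 lungs gave p = 0.0794, unadjusted, and the fit of the 2 groups alone a limma adjusted p of 0.116. At 12 months, Aldoa measured 90.1, 80.9, 57.1, 93.9 and 91.9 FPKM in the silica lungs, against 60.8, 65.6, 62.8, 61.1 and 56.2 FPKM in the air lungs. Silica replicate 3, at 57.1 FPKM, fell below 4 of the 5 air lungs, while the other 4 silica lungs lay above all air lungs. The means were 82.8 ± 15.2 FPKM with silica and 61.3 ± 3.43 FPKM with air (SD, n = 5 each), a rise of 0.41 ± 0.087 (log2, SE; limma adjusted p = 0.000503). Leaving out silica replicate 3, the lowest of its group, had to raise the difference, which became 0.54 (limma adjusted p = 1.37e-07). In the fit of the 2 groups alone, which called 1 of 1278 entries, the limma adjusted p was 0.121. The 18-month silica lungs held 82.3, 77.3, 84.7, 96.7 and 81.9 FPKM of Aldoa, and the 18-month air lungs held 65.1, 66.3, 77.1, 66.5 and 66.3 FPKM. All 5 silica lungs were above all air lungs, the highest of which was replicate 3 at 77.1 FPKM. Aldoa rose by 0.31 ± 0.087 log2 units (SE; adjusted p = 0.0125 by limma), with means of 84.6 ± 7.30 FPKM with silica and 68.3 ± 5.00 FPKM with air (SD, n = 5 each). The call was lost without silica replicate 4 (adjusted p = 0.0689).

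**Figure D2:**
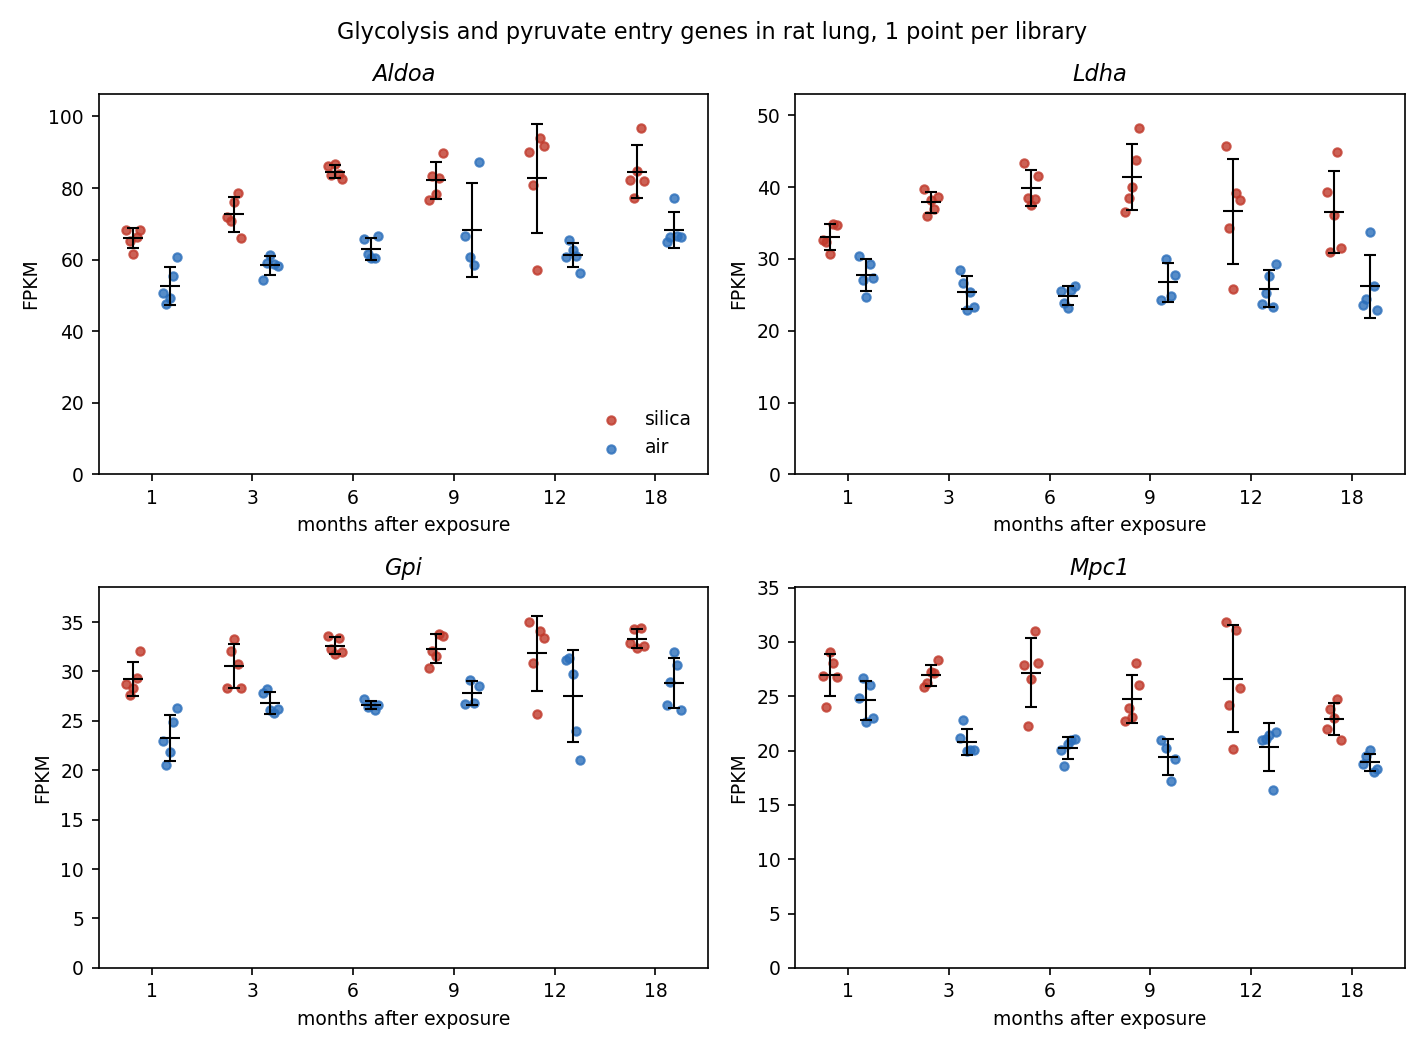
Levels of the 4 genes in FPKM (vertical axis, starting at 0) in each of the 59 libraries by post-exposure time in months (horizontal axis), with silica left of air at each time; black bars give the group mean and SD. Aldoa lies highest at 47.5 to 96.7 FPKM, and the silica library at 57.1 FPKM in the 12-month Aldoa group is replicate 3.

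Ldha, the lactate dehydrogenase subunit that favours making lactate from pyruvate, showed the largest averaged difference of the 4 genes. At 1 month, Ldha measured 32.6, 32.3, 30.6, 34.9 and 34.7 FPKM in the silica lungs, against 30.5, 27.0, 24.7, 29.3 and 27.4 FPKM in the air lungs. Every silica library was just above every air library, the nearest pair being 30.6 FPKM with silica and 30.5 FPKM with air. The means were 33.0 ± 1.79 FPKM with silica and 27.8 ± 2.22 FPKM with air (SD, n = 5 each), and the log2 difference of 0.25 ± 0.10 (SE) did not pass (limma adjusted p = 0.114). Its 95% confidence interval ran 0.048 to 0.45. The exact two-sided permutation test of these 10 libraries gave p = 0.00794, unadjusted, the smallest it can give. The 3-month silica lungs held 39.7, 35.9, 38.2, 36.9 and 38.6 FPKM of Ldha, and the 3-month air lungs held 28.5, 26.7, 22.9, 25.3 and 23.4 FPKM. The groups were far apart, with a lowest silica value of 35.9 FPKM against a highest air value of 28.5 FPKM. Ldha rose by 0.57 ± 0.10 log2 units (SE; adjusted p = 3.23e-05 by limma), with means of 37.9 ± 1.47 FPKM with silica and 25.4 ± 2.32 FPKM with air (SD, n = 5 each). For Ldha the 5 silica lungs at 6 months gave 43.4, 38.5, 37.6, 38.4 and 41.6 FPKM, against 25.5, 23.8, 23.2, 25.7 and 26.2 FPKM in air lungs. All 5 silica lungs were above all air lungs. With means of 39.9 ± 2.49 FPKM with silica and 24.9 ± 1.32 FPKM with air (SD, n = 5 each), the rise was 0.67 ± 0.10 (log2, SE; limma adjusted p = 1.32e-06).

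The 9-month silica lungs held 36.5, 38.5, 40.0, 43.8 and 48.2 FPKM of Ldha, and the 9-month air lungs held 24.3, 30.0, 24.9 and 27.7 FPKM. The groups did not overlap. Ldha rose by 0.62 ± 0.11 log2 units (SE; adjusted p = 1.19e-05 by limma), with means of 41.4 ± 4.65 FPKM with silica and 26.7 ± 2.67 FPKM with air (SD, n = 5 and n = 4). For Ldha the 5 silica lungs at 12 months gave 45.7, 34.4, 25.8, 39.3 and 38.1 FPKM, against 23.8, 25.3, 27.6, 23.3 and 29.3 FPKM in air lungs. Silica replicate 3 lay inside the air range, and the other 4 silica lungs lay above it. With means of 36.6 ± 7.29 FPKM with silica and 25.9 ± 2.55 FPKM with air (SD, n = 5 each), the rise was 0.48 ± 0.10 (log2, SE; limma adjusted p = 0.000442). Leaving out silica replicate 3, the lowest of its group, had to raise the difference, which became 0.59 (limma adjusted p = 1.52e-06). In the fit of the 2 groups alone, which called 1 of 1278 entries, the limma adjusted p was 0.115. At 18 months, Ldha measured 39.3, 31.0, 36.1, 44.8 and 31.5 FPKM in the silica lungs, against 23.6, 24.4, 33.8, 26.3 and 22.9 FPKM in the air lungs. The groups overlapped through air replicate 3, at 33.8 FPKM, which exceeded silica replicates 2 and 5, and the other 4 air lungs lay below all silica lungs. The means were 36.6 ± 5.74 FPKM with silica and 26.2 ± 4.43 FPKM with air (SD, n = 5 each), a rise of 0.47 ± 0.10 (log2, SE; limma adjusted p = 0.000623). In air lungs the group means of Ldha stayed between 24.9 and 27.8 FPKM over the 6 times.

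Mpc1, a subunit of the mitochondrial pyruvate carrier, is the only member that acts at the mitochondrion. At 1 month, Mpc1 measured 26.9, 23.99, 29.02, 28.1 and 26.7 FPKM in the silica lungs, against 24.8, 26.7, 22.6, 26.0 and 23.0 FPKM in the air lungs. The groups overlapped through silica replicate 2, and the other 4 silica lungs lay above all air lungs. The means were 26.9 ± 1.90 FPKM with silica and 24.6 ± 1.80 FPKM with air (SD, n = 5 each), and the log2 difference of 0.13 ± 0.083 (SE) did not pass (limma adjusted p = 0.385). Its 95% confidence interval ran -0.039 to 0.29. For Mpc1 the 5 silica lungs at 3 months gave 25.8, 26.2, 27.2, 27.1 and 28.3 FPKM, against 21.2, 22.8, 19.99, 20.05 and 20.1 FPKM in air lungs. No air library reached the lowest silica library. With means of 26.9 ± 0.972 FPKM with silica and 20.8 ± 1.205 FPKM with air (SD, n = 5 each), the rise was 0.37 ± 0.083 (log2, SE; limma adjusted p = 0.00111). The 6-month silica lungs held 27.9, 22.3, 26.6, 31.0 and 28.1 FPKM of Mpc1, and the 6-month air lungs held 20.04, 18.6, 20.6, 21.0 and 21.0 FPKM. The groups did not overlap, with silica replicate 2, at 22.3 FPKM, nearest to the air lungs. Mpc1 rose by 0.41 ± 0.083 log2 units (SE; adjusted p = 0.000150 by limma), with means of 27.2 ± 3.19 FPKM with silica and 20.2 ± 1.03 FPKM with air (SD, n = 5 each).

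At 9 months, Mpc1 measured 22.7, 23.9, 23.1, 28.0 and 26.0 FPKM in the silica lungs, against 21.0, 20.2, 17.2 and 19.2 FPKM in the air lungs. Each silica lung exceeded each air lung. The means were 24.8 ± 2.22 FPKM with silica and 19.4 ± 1.64 FPKM with air (SD, n = 5 and n = 4), a rise of 0.35 ± 0.088 (log2, SE; limma adjusted p = 0.00200). For Mpc1 the 5 silica lungs at 12 months gave 31.9, 24.2, 20.2, 31.1 and 25.7 FPKM, against 20.9, 21.1, 21.4, 16.4 and 21.7 FPKM in air lungs. Silica replicate 3, at 20.2 FPKM, lay below 4 of the 5 air lungs, and the other 4 silica lungs lay above all air lungs. With means of 26.6 ± 4.89 FPKM with silica and 20.3 ± 2.23 FPKM with air (SD, n = 5 each), the rise was 0.37 ± 0.083 (log2, SE; limma adjusted p = 0.000784). Leaving out silica replicate 3, the lowest of its group, had to raise the difference, which became 0.46 (limma adjusted p = 6.26e-06). In the fit of the 2 groups alone, which called 1 of 1278 entries, the limma adjusted p was 0.134. The 18-month silica lungs held 22.0, 23.9, 23.0, 24.7 and 21.0 FPKM of Mpc1, and the 18-month air lungs held 18.7, 19.5, 20.001, 18.0 and 18.3 FPKM. The groups did not overlap. Mpc1 rose by 0.27 ± 0.083 log2 units (SE; adjusted p = 0.0209 by limma), with means of 22.9 ± 1.47 FPKM with silica and 18.9 ± 0.816 FPKM with air (SD, n = 5 each). This call was lost without air replicate 4 (adjusted p = 0.0513) or silica replicate 4 (0.0790).

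The 4 genes did not rise by the same amount, as shown by their ratios within each library, which a single scaling factor per library leaves unchanged. The 6 ratios were tested by a two-sided permutation test with 100000 draws that shuffled treatment within each time, with p adjusted over the 6. The Ldha to Gpi ratio was 1.21-fold higher in silica lungs than in air lungs (permutation adjusted p = 3e-05, from the smallest p the draws can give) and was higher at 5 of 6 times. The Ldha to Mpc1 ratio was 1.15-fold higher (permutation adjusted p = 3e-05), at 6 of 6 times. The Aldoa to Ldha ratio was lower, at 0.891 of that in air lungs (permutation adjusted p = 0.0004), at 5 of 6 times, and the Aldoa to Gpi ratio was 1.07-fold higher (permutation adjusted p = 0.00129), at 5 of 6 times.

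The Gpi to Mpc1 ratio (0.949 of air) and the Aldoa to Mpc1 ratio (1.02-fold) did not pass, with permutation adjusted p of 0.0594 and 0.473. The Gpi to Mpc1 ratio passed when any 1 of 10 libraries was left out, with adjusted p down to 0.0110. Ldha exceeded Gpi in 28 of 30 silica libraries and in 9 of 29 air libraries, which changes the order of the 2 genes between the groups. The arithmetic mean of the Ldha to Gpi ratio was 1.13 ± 0.0509 in silica lungs and 1.199 ± 0.123 in air lungs at 1 month (SD, n = 5 each). It was 1.25 ± 0.128 in silica lungs and 0.945 ± 0.0617 in air lungs at 3 months, and 1.22 ± 0.0677 in silica lungs and 0.937 ± 0.0504 in air lungs at 6 months. The later means were 1.28 ± 0.0962 in silica lungs and 0.959 ± 0.0550 in air lungs at 9 months (n = 4 for air), 1.14 ± 0.106 in silica lungs and 0.972 ± 0.249 in air lungs at 12 months, and 1.097 ± 0.163 in silica lungs and 0.905 ± 0.0862 in air lungs at 18 months. At 1 month the ratio was thus not higher with silica, and whether that time differs from the others in this ratio was not tested.

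**Figure D3:**
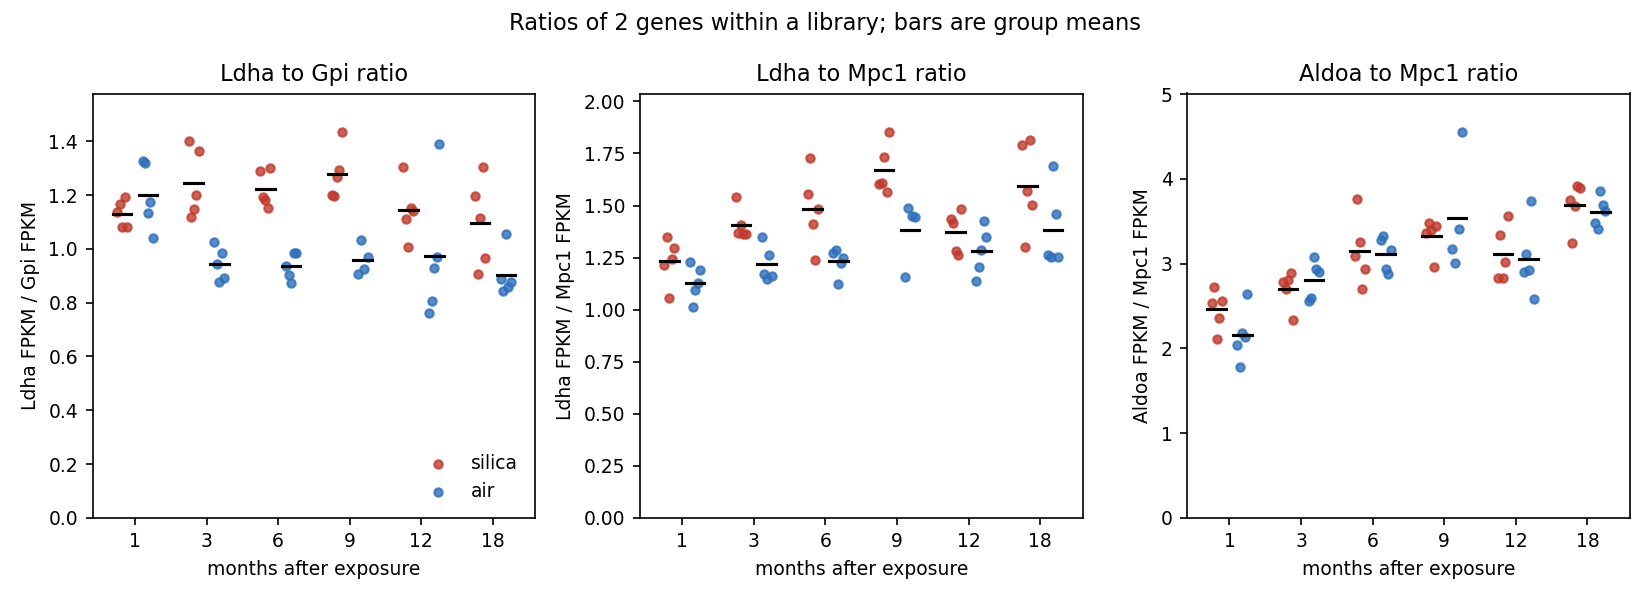
Ratios of gene pairs within each library by post-exposure time in months, on a vertical axis that starts at 0, with silica left of air at each time; points are libraries and bars are group means. The Ldha to Gpi ratio lies above 1 in 28 of 30 silica libraries and in 9 of 29 air libraries.

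The control lungs themselves differed between the first and last times, and the genes moved in opposite directions. In air lungs at 18 months, Aldoa was higher by 0.37 ± 0.087 log2 units than in air lungs at 1 month (SE; adjusted p = 0.00150 by limma), and Gpi by 0.30 ± 0.075 (adjusted p = 0.00238), while 17.4% of all entries were called higher. Mpc1 was lower, with a difference of -0.37 ± 0.083 (limma adjusted p = 0.000954), where 4.46% of entries were called lower. Ldha did not pass, at -0.094 ± 0.10 (limma adjusted p = 0.553). Over all entries 222 were called higher and 57 lower as deposited, against 122 (9.55% of entries) and 165 (12.9%) after centring, and the 3 calls on Aldoa, Gpi and Mpc1 held under both. The rats were older at 18 months, and age cannot be told apart from any difference in when the libraries were made, since the labels give no batch.

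Within a library, the balance of the early glycolytic genes to the pyruvate carrier moved with time in both arms. This comparison of ratios was chosen after the data were seen, with an exact two-sided permutation test of 5 against 5 lungs whose smallest p is 0.00794 and with p adjusted over 6 ratios in each arm. Ratios are given here as geometric means, the means on the log scale that was tested. The Aldoa to Mpc1 ratio averaged 3.63 at 18 months against 2.42 at 1 month in silica lungs (exact permutation adjusted p = 0.0159), and 3.54 at 18 months against 2.11 at 1 month in air lungs (exact permutation adjusted p = 0.0119). The Gpi to Mpc1 ratio averaged 1.45 at 18 months against 1.08 at 1 month in silica lungs (exact permutation adjusted p = 0.0159), and 1.51 at 18 months against 0.945 at 1 month in air lungs (exact permutation adjusted p = 0.0119). Both ratios were higher at 18 months in both arms, with no overlap between the times. The Ldha to Mpc1 ratio averaged 1.57 at 18 months against 1.22 at 1 month in silica lungs (exact permutation adjusted p = 0.0238), and 1.36 at 18 months against 1.12 at 1 month in air lungs (exact permutation adjusted p = 0.0119). The Aldoa to Ldha ratio averaged 2.31 at 18 months against 1.98 at 1 month in silica lungs (exact permutation adjusted p = 0.0159), and 2.597 at 18 months against 1.88 at 1 month in air lungs (exact permutation adjusted p = 0.0119). The Ldha to Gpi ratio averaged 1.09 at 18 months against 1.13 at 1 month in silica lungs (exact permutation adjusted p = 0.603), and 0.903 at 18 months against 1.19 at 1 month in air lungs (exact permutation adjusted p = 0.0190). The Ldha to Gpi ratio therefore passed as lower in air lungs and did not pass in silica lungs, and the difference between the arms was not tested. The Aldoa to Gpi ratio averaged 2.51 at 18 months against 2.24 at 1 month in silica lungs (exact permutation adjusted p = 0.0381), a call lost without any of 9 of the 10 libraries (up to 0.0762), and 2.35 at 18 months against 2.24 at 1 month in air lungs (adjusted p = 0.143, exact permutation), which passed without air replicate 4 of 18 months (0.0476).

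Across all libraries Aldoa averaged 78.8 ± 9.94 FPKM in silica lungs and 61.8 ± 7.79 FPKM in air lungs (SD, n = 30 and n = 29), and ranked 25th of 2887 entries by its mean over all libraries. Ldha averaged 37.6 ± 4.88 FPKM with silica and 26.1 ± 2.67 FPKM with air (rank 70), Gpi 31.6 ± 2.34 and 26.8 ± 2.88 FPKM (rank 78), and Mpc1 25.9 ± 2.97 and 20.8 ± 2.36 FPKM (rank 111). Aldoa was clear of the others, since it was the highest in every library. The neighbours below it were not: Gpi exceeded Mpc1 in 28 of 30 silica and 24 of 29 air libraries, and Ldha and Gpi overlapped in their ranges in both groups. Ldha exceeded Mpc1 in all 30 silica and all 29 air libraries.

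The rest of the pathway is thinly covered by the table, and genes outside it were not analysed here. Of 26 listed glycolysis genes 3 were in the table, Gpi, Aldoa and the sperm-specific Gapdhs, which was too low to test. Ldhc, a testis-type lactate dehydrogenase, was also too low to test, with group means of at most 0.165 FPKM, and none of 12 pentose phosphate genes was in the table. Of 20 genes of pyruvate use in mitochondria, 1 tested gene besides Mpc1 did not pass. In the tricarboxylic acid cycle 1 of 2 tested genes rose in the average over times: Idh2, the mitochondrial isocitrate dehydrogenase that makes NADPH, rose by 0.12 ± 0.041 (adjusted p = 0.0107), by limma, a call lost after centring (adjusted p = 0.240).

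Of 5 tested genes of glucose entry and glycogen, 2 rose and 1 fell in the limma average over times as deposited. After centring, 2 rose and 2 fell. Phkg2, a catalytic subunit of the kinase that activates glycogen phosphorylase, rose by 0.38 ± 0.035 (adjusted p = 3.91e-13) and Gys1, glycogen synthase, rose by 0.16 ± 0.029 (adjusted p = 6.40e-06), on the log2 scale. Pgm2l1, which makes glucose bisphosphate, fell by 0.26 ± 0.039 (limma adjusted p = 1.86e-07). Phkg2 averaged 13.01 ± 0.487 FPKM in silica lungs at 9 months, against 9.14 ± 0.442 FPKM in air lungs (SD, n = 5 and n = 4). Of 4 tested genes of the hypoxia response, 1 rose and 2 fell: Arnt2, a partner of hypoxia-inducible factors, rose by 0.15 ± 0.037 (adjusted p = 0.000483), Bnip3, a mitophagy receptor, fell by 0.15 ± 0.037 (adjusted p = 0.000541), and Adm, the vasodilator adrenomedullin, fell by 0.20 ± 0.056 (adjusted p = 0.00167), all by limma. These lists had 57.6% of all tested entries called in either direction as their background.

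Among 9 tested genes of the respiratory chain and uncoupling, 6 rose and 1 fell in the limma average over times. After centring, 4 rose and 1 fell. Of all tested entries, 37.5% were called higher in this average as deposited and 26.4% after centring. Cox6a2 and Cox8b of this list also stand in the list of striated muscle markers below. Ucp2, an inner membrane uncoupling protein, rose by 0.37 ± 0.051 (adjusted p = 2.34e-08), Etfb, a subunit of the electron transfer flavoprotein, by 0.32 ± 0.043 (adjusted p = 7.87e-09), Ndufab1, the mitochondrial acyl carrier protein of complex I, by 0.21 ± 0.037 (adjusted p = 4.46e-06) and Ndufa3, a complex I subunit, by 0.26 ± 0.060 (adjusted p = 0.000242). Ndufc2, also of complex I, rose by 0.13 ± 0.040 (adjusted p = 0.00562), a call lost after centring (adjusted p = 0.130). Etfb measured 25.7 ± 1.54 FPKM in silica lungs at 9 months, against 18.3 ± 0.654 FPKM in air lungs (SD, n = 5 and n = 4). The lists were drawn up with earlier results of these data known, so their counts describe these samples only.

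**Figure D4:**
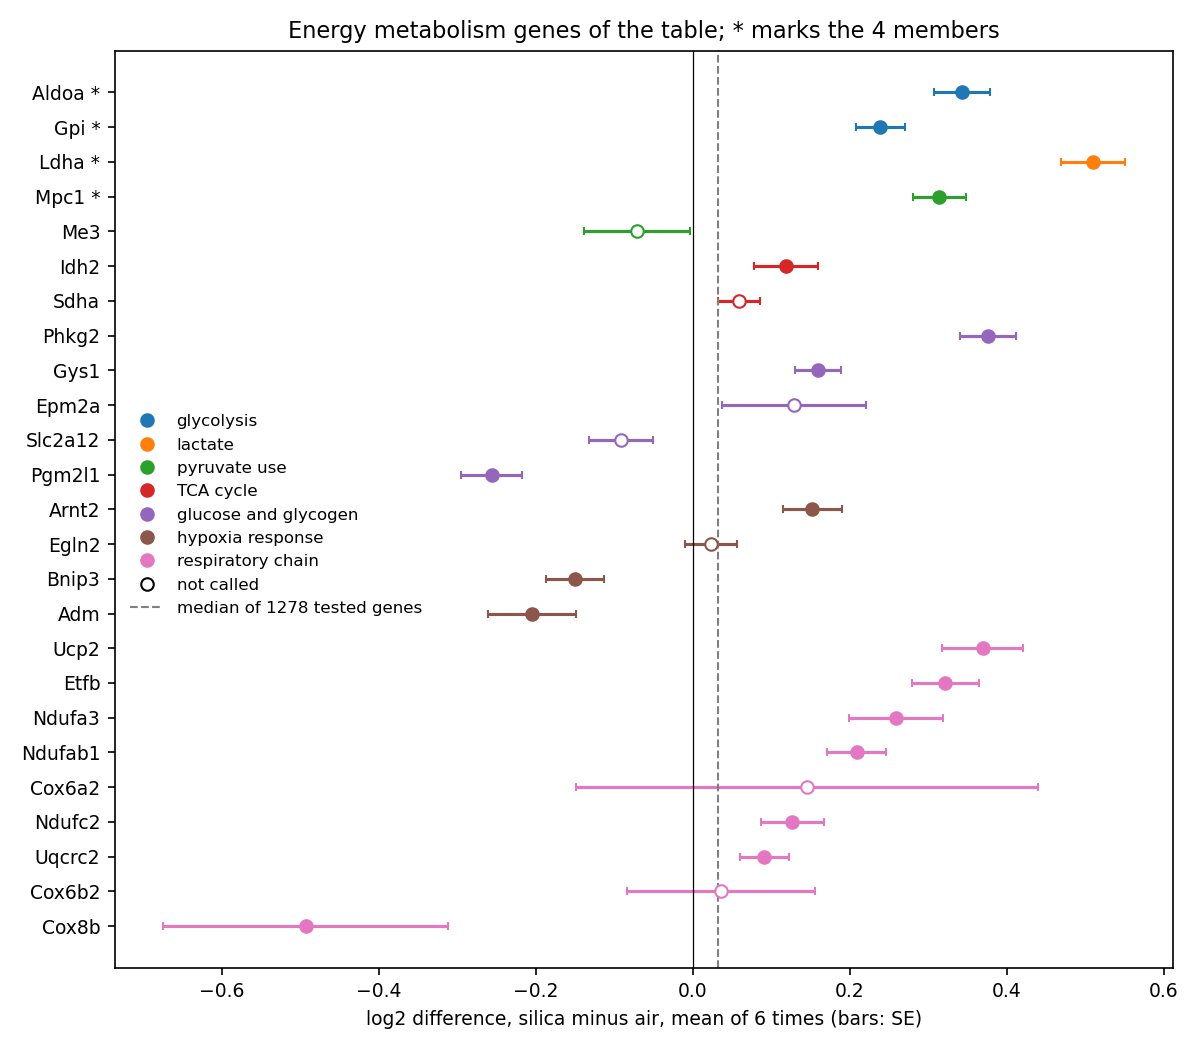
Silica minus air difference, averaged over the 6 times, of the 4 genes and the other tested pathway genes on the log2(FPKM + 0.5) scale (horizontal axis), with standard errors from limma and open points for genes not called; the dashed line is the median of the 1278 tested entries, 0.032. Ldha has the highest value at 0.51 and Phkg2 the next at 0.38.

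Markers of several cell types moved between the same groups of lungs. As background for all marker counts, 37.5% of tested entries were called higher in the average over times (26.4% after centring). In either direction 57.6% were called. The marker lists were also drawn up with earlier results of these data known, so their counts are a description and not a test. Of 35 listed macrophage, dendritic and neutrophil markers, 23 were in the table and 21 were tested. In the limma average over times 18 of these markers rose and 1 fell, and 17 rose and 1 fell after centring. Their summed level was 218 to 233 FPKM in silica lungs against 141 to 168 FPKM in air lungs at 1 month, 241 to 286 FPKM in silica lungs against 146 to 155 FPKM in air lungs at 3 months, and 291 to 317 FPKM in silica lungs against 142 to 166 FPKM in air lungs at 6 months. It was 279 to 341 FPKM in silica lungs against 149 to 190.5 FPKM in air lungs at 9 months, 146 to 368 FPKM in silica lungs against 142 to 202 FPKM in air lungs at 12 months, and 271 to 321 FPKM in silica lungs against 168 to 196 FPKM in air lungs at 18 months. The lowest silica value at 12 months, 146 FPKM, was that of replicate 3, the lung with the lowest value of its group for each of the 4 genes. The sums did not overlap between the groups at any other time.

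Of 15 listed alveolar type 2 markers, 3 were in the table (Lpcat1, Napsa and Cebpa), and all 3 rose in the average over times. Their summed level was 173 to 192 FPKM in silica lungs against 131 to 146 FPKM in air lungs at 1 month, 187 to 232 FPKM in silica lungs against 129.8 to 157 FPKM in air lungs at 3 months, and 238 to 271 FPKM in silica lungs against 145 to 153 FPKM in air lungs at 6 months. It was 230.4 to 306 FPKM in silica lungs against 143 to 147 FPKM in air lungs at 9 months, 138 to 318 FPKM in silica lungs against 136 to 166 FPKM in air lungs at 12 months, and 198 to 234 FPKM in silica lungs against 142 to 159.8 FPKM in air lungs at 18 months, with replicate 3 again lowest at 12 months. The surfactant protein genes were not analysed here, and Lpcat1 averaged 66.8 FPKM over all libraries. Of 21 cell-cycle genes, 6 were in the table and all 4 tested rose. Over all times the 6 summed to 8.47 to 19.8 FPKM in silica lungs and 7.64 to 12.3 FPKM in air lungs. The silica value of 8.47 FPKM was that of 12-month replicate 3. At every time but 12 months the groups did not overlap in this sum. Of 18 endothelial markers, 5 were in the table and all 5 fell. Over all times the 5 summed to 61.7 to 97.6 FPKM in silica lungs and 85.8 to 106 FPKM in air lungs. The groups did not overlap at 6 months (68.1 to 78.4 FPKM with silica, 87.1 to 102 FPKM with air). At 9 months they were also apart (61.7 to 69.3 FPKM with silica, 91.5 to 97.4 FPKM with air). They overlapped at the other times. The silica value of 97.6 FPKM was that of 12-month replicate 3.

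Striated muscle, which is rich in Aldoa, was represented by 10 of 29 listed markers, of which 6 were tested, 1 rose and 1 fell, with sums of 5.47 to 184 FPKM in silica lungs and 7.68 to 138 FPKM in air lungs. Of 10 erythrocyte markers, 4 were in the table, 3 were tested and 2 fell, with sums of 806 to 2119 FPKM in silica lungs and 1138 to 3037 FPKM in air lungs. Of 20 B and T cell markers, 5 were in the table, 1 rose and 1 fell, and 1 rose and 3 fell after centring. Their sums were 27.6 to 46.5 FPKM in silica lungs and 25.7 to 53.1 FPKM in air lungs. Itgal stands both in this list and in that of macrophage, dendritic and neutrophil markers. No marker in the table was at 0 in all libraries. The part that cell makeup has in the rises of the 4 genes was not tested.

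The entries whose levels over the 59 libraries were most like those of each gene, by Pearson r of log2(FPKM + 0.5), are given as a description, since the libraries share treatment, time and depth. For Ldha they were Sod2, the mitochondrial superoxide dismutase (0.952), Lpcat1, a surfactant lipid enzyme (0.925), and Plaur, the urokinase receptor (0.923). For Aldoa they were Apobr, a lipoprotein receptor of macrophages (0.911), Iqgap1, a cytoskeletal scaffold (0.907), and Anpep, an aminopeptidase (0.90). For Gpi they were Mvp, the major vault protein (0.889), Cited2, a transcriptional regulator (0.850), and Apobr (0.842). For Mpc1 they were Pdcd6, a calcium-binding protein (0.862), Psma1, a proteasome subunit (0.831), and Prcp, a lysosomal carboxypeptidase (0.828). An unnamed entry, LOC103690935, followed Ldha at r = 0.910 with a mean of 2.54 FPKM, and whether it shares reads with Ldha was not tested.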

How the data were processed

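RNA from lung pieces was made into stranded, ribosomal RNA-depleted libraries, per the labels' protocols. The authors deposited FPKM for each library and gene name. The submitters' processing notes name Cufflinks 2.1.1, TopHat2 2.0.9, Bowtie2 2.2.9, Trimmomatic 0.35 and bcl2fastq 2.19, with no role given. The genome build and annotation are not given in the sources used here. Of 2888 entries the last held 31 of 59 values and was left out. Of the names, 2061 matched RefSeq GRCr8, and 2046 of these lie on chromosome 1, so genes elsewhere were not analysed here. Every value column was matched to a sample by name.

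FPKM are not counts, so limma 3.58.1 in R 4.3.3 was run on log2(FPKM + 0.5) in one fit of 12 group means, with an intensity trend, over 59 libraries (47 residual degrees of freedom). This scale understates the change of low genes. Entries with at least 1 FPKM in 4 libraries entered, 1278 of 2887, with Benjamini-Hochberg adjustment of p over all these entries and a threshold of 0.05. The fit was checked on simulated data. Contrasts were silica minus air at each time, their mean, their variation between times, and air at 18 months minus air at 1 month. Ratios and plots used Python 3.11.15. Relative library depth, 0.436 to 2.26, came from 261 low entries, where 59.9% of values lay within a log2 distance of 0.1 of 1 step, so reads were not recovered and no count test was run. Libraries come from separate rats.

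The 4 genes, the pathway lists and the marker lists were chosen with earlier results of these data known. In each pathway list the called genes are named, at most 5 by smallest p, and for each member the 3 most alike named entries. Another pseudocount, filter or scaling, no intensity trend, array weights, a fit of 2 groups alone, an exact permutation test and leaving out each library were tried.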

Additional observations from a re-analysis of the deposited data

Results flagged for a closer look

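Each of the 4 genes was examined in each of the 12 groups of 4 or 5 lungs, which made 48 sets. In 2 of the 48 sets, 1 lung lay far from the others, and chance alone does so in about 1 in 20. The same lungs enter for each gene, so the sets are not independent. Aldoa in air replicate 3 at 18 months was the highest of its group at 77.1 FPKM, with a gap to the nearest lung that made up 0.882 of the range of the group. Mpc1 in air replicate 4 at 12 months was the lowest of its group at 16.4 FPKM, with a gap of 0.848 of the range.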

How the results depend on the processing

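No paired analysis was possible because the labels give every library a number of its own. The replicate numbers used here only name libraries within a group and pair no silica lung with an air lung. Of 1534 alternatives of the results on the 4 genes and their ratios, 1460 kept direction and side of the threshold, 56 lost a call, 16 gained one and 2 turned direction. The direction of the silica differences of the 4 genes held in 715 of 716. Many of these could not turn it: no filter, no intensity trend, the fit of 2 groups alone and the exact permutation test leave the difference itself unchanged. For the changes below the cause was not tested.

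Quantile normalization turned the uncalled Mpc1 difference at 1 month to -0.020 (limma adjusted p = 0.916). It took the Aldoa difference to 0.12 at 3 months, 0.22 at 9 months and 0.16 at 18 months, the Gpi difference to 0.065 at 6 months, 0.0084 at 9 months, 0.050 at 12 months and 0.090 at 18 months, and the Mpc1 difference to 0.16 at 18 months, none of them called. Median centring left 65 entries called at 1 month, in place of 113, and lost Aldoa at 1 month (0.23), Gpi at 18 months (0.15) and Mpc1 at 18 months (0.21). Array weights called 198 entries at 1 month, 536 at 6 months (353 otherwise) and 153 for variation between times (17 otherwise), and called Ldha at 1 month (0.24) and Gpi at 3 months (0.20).

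The fit of 2 groups alone called 1 entry at 12 months, in place of 302, and 130 at 18 months, in place of 196. It lost Aldoa at 9 months (0.28), Aldoa (0.41), Ldha (0.48), Gpi (0.22) and Mpc1 (0.37) at 12 months, and Gpi at 18 months (0.21), and it called Ldha at 1 month (0.25). Gpi at 18 months was also lost at a pseudocount of 0.1, with no filter and with no intensity trend (0.21 each), and Gpi at 9 months with no filter (0.21). By the exact permutation test, unadjusted, Aldoa at 9 months (0.28, p = 0.0794) and Gpi at 12 months (0.22, p = 0.167) did not pass, while Ldha at 1 month (0.25, p = 0.00794) and Gpi at 3 months (0.18, p = 0.00794) did.

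Leaving out each library in turn, the entries called ran 44 to 136 at 1 month (44 without air replicate 2 and 66 without silica replicate 5), 194 to 457 at 12 months (194 without silica replicate 1, 196 without silica replicate 4 and 457 without silica replicate 3), 112 to 214 at 18 months (112 without silica replicate 4) and 10 to 78 for variation between times. The Aldoa difference ran 0.29 to 0.38 at 1 month, 0.21 to 0.40 at 9 months and 0.26 to 0.35 at 18 months. The Gpi difference ran 0.19 to 0.23 at 9 months, 0.13 to 0.29 at 12 months and 0.17 to 0.25 at 18 months, and the Mpc1 difference ran 0.24 to 0.30 at 18 months. The log2 Gpi to Mpc1 ratio, silica minus air, ran -0.095 to -0.064. For 18 months against 1 month, the log2 difference of the Aldoa to Gpi ratio ran 0.13 to 0.21 in silica lungs and 0.045 to 0.10 in air lungs, and that of the Ldha to Gpi ratio ran -0.12 to 0.011 in silica lungs, turning without silica replicate 2 of 18 months. The number of fragments behind each FPKM is unknown, so no counting error could be given.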

Other observations

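Within the 12 groups, several pairs of the 4 genes also varied together from lung to lung. The deviations of the 59 libraries from their group means were correlated for the 6 pairs, with libraries permuted within groups and p adjusted over the 6. Aldoa and Gpi had a Pearson r of 0.608 and a Spearman rho of 0.589 (permutation adjusted p = 0.00012 and 0.00018), and Ldha and Mpc1 an r of 0.593 and a rho of 0.519 (0.00012 and 0.00105). Without the 2 libraries farthest from the median in the first gene named, these r were 0.566 and 0.507. Here and below, libraries far out in the second gene alone stayed in. Aldoa and Ldha had an r of 0.547 and a rho of 0.404 (permutation adjusted p = 0.00400 and 0.00680), and 0.437 without 2 libraries. Ldha and Gpi had an r of 0.428 and a rho of 0.493 (permutation adjusted p = 0.0106 and 0.00112), and 0.269 without 2 libraries, and Gpi and Mpc1 an r of 0.414 and a rho of 0.396 (0.0197 and 0.00680), and 0.422 without 2 libraries. Aldoa with Mpc1 did not pass, at an r of 0.379 and a rho of 0.201 (permutation adjusted p = 0.0535 and 0.176), and 0.234 without 2 libraries. Library scaling is shared by all 4 genes, and after median centring the Pearson test passed for 3 of the 6 pairs. There r was 0.472 for Aldoa and Gpi, 0.544 for Ldha and Mpc1 and 0.460 for Aldoa and Ldha (permutation adjusted p = 0.00306, 0.00108 and 0.0166). It was 0.302 for Ldha and Gpi, 0.302 for Gpi and Mpc1 and 0.269 for Aldoa and Mpc1 (permutation adjusted p = 0.0837, 0.0958 and 0.177), and by Spearman's rho only the last of these 3 missed (adjusted p = 0.00902, 0.0255 and 0.268).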
